A study of Mus musculus with 2 samples.

Results

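The genes described here encode the contractile apparatus of muscle and of myoepithelial cells, together with the related proteins of non-muscle cells. They were taken by name from the table of gene reads. The rule took every row named Myh, Myl, Actn, Tpm, Tnni, Tnnt or Tnnc with a number and at most 1 letter, which gave 42 genes. A further 15 genes were taken by symbol, among them the muscle actins, desmin, titin and creatine kinase. In all, 57 of the 20003 listed genes were members. They were divided into 35 genes of striated (skeletal and cardiac) muscle, 10 of smooth muscle and 12 of non-muscle cells. They were chosen and divided by gene name and known class, with earlier results of these data known.

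The series asked what blocking Hedgehog signalling does to the transcriptome of macrophages polarized with interleukin 4 (IL-4), and it held 2 mRNA libraries. The GANT61 library came from cells given 10 µM GANT61, a small-molecule inhibitor of GLI proteins, the transcription factors through which Hedgehog signals reach genes. The DMSO library came from cells given the solvent alone. The cells of both were labelled RAW 264.7, a virus-transformed mouse macrophage line, and both had received 20 ng/mL macrophage colony-stimulating factor overnight and 10 ng/mL IL-4, with GANT61 or DMSO added 4 h before the IL-4. The time in IL-4 was 15 min in the treatment protocol but 24 h in the growth protocol. Each group was 1 library of 1 cell line as labelled, so no difference below has a replicate check.

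The GANT61 library held 57705874 reads, of which the 57 genes took 0.464%, and the DMSO library 61632784, of which they took 0.451%. A count of 0 allowed up to 3 reads, or 0.0528 counts-per-million (CPM) in the GANT61 library and 0.0479 CPM in the DMSO library. The labelled cell type was checked against marker lists. All 10 macrophage markers reached 10 CPM in both libraries, but so did all 10 fibroblast and all 10 endothelial markers and 8 of 10 adipocyte markers. The summed level of the adipocyte markers was 986 CPM in the GANT61 library and 6274 CPM in the DMSO library, and 10 of 10 were lower. That of the macrophage markers was 6460 CPM with GANT61 and 2355 CPM with DMSO, with 9 of 10 higher. Fibroblast markers summed to 9120.0 CPM with GANT61 and 8341 CPM with DMSO, with 0 of 10 called. Endothelial markers summed to 671 CPM with GANT61 and 798 CPM with DMSO, with 2 of 10 lower. Both libraries therefore held marker RNA of cell types other than the labelled one. No marker in these 4 lists was at 0 in either library. The part of these cell types in the contractile gene values was not tested. In bulk RNA, fewer cells of a type and less RNA per cell cannot be told apart.

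Muscle contracts when myosin heavy chains, carrying light chains, pull on actin filaments. In striated muscle the filaments are arranged in sarcomeres, and calcium acts through troponin (subunits C, I and T) and tropomyosin on the thin filament. Smooth muscle and the myoepithelial cells that surround glands have no troponin switch. There calcium acts through myosin light chain kinase, and a set of smooth muscle proteins (Acta2, Cnn1, Tagln, Myh11) marks them. All cells carry non-muscle myosin II and cytoplasmic actins for shape, movement and division.

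More striated genes were called higher than lower in the GANT61 library, at low levels. A gene was called higher or lower when its ratio of GANT61 to DMSO was at least 1.5 or at most the inverse, its 95% counting interval excluded 1 and its mean was at least 1 CPM. The rule describes the pair of libraries and is no test of the treatment. It called 24.4% of the 13939 genes that reached this mean, 14.1% higher and 10.3% lower. Of the 57 genes, 40 reached it. Of 19 striated genes that reached it, 11 were higher, 4 lower and 4 neither. Of 10 smooth muscle genes 0 were higher, 3 lower and 7 neither, and of 11 non-muscle genes 1 was higher, 2 lower and 8 neither. The called shares of these last classes, 3 of 10 and 3 of 11, lay near the 24.4% of all genes considered. The median log2 ratio was 0.84 over the striated, -0.27 over the smooth muscle and -0.11 over the non-muscle genes, beside -0.01 over all genes considered. A gene that is abundant in 1 library only can pass the floor through that library, so the counts describe these genes and support nothing further.

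**Figure D1:**
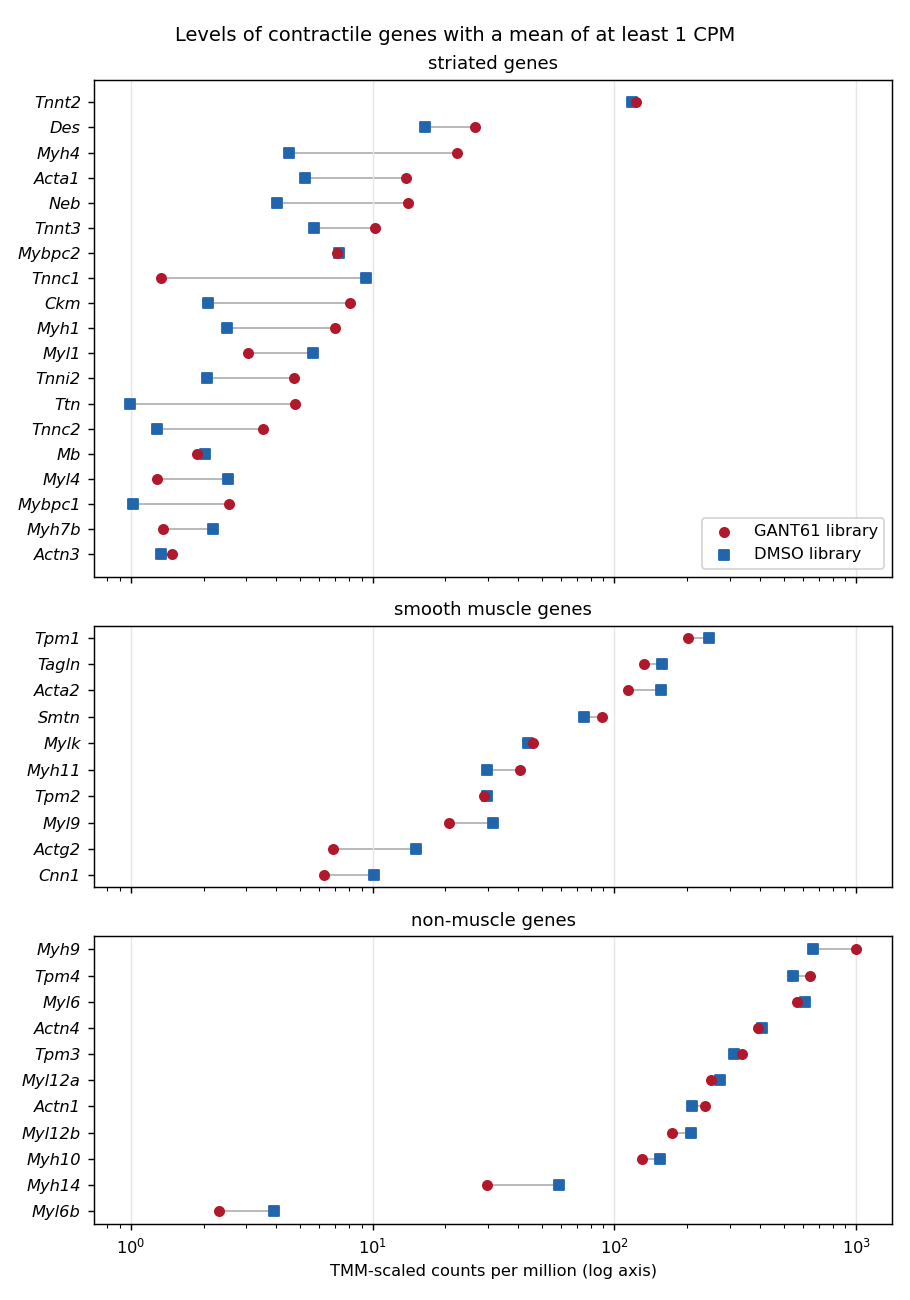
Scaled CPM, on a log axis, of the 40 contractile genes that reached a mean of 1 CPM, in 3 panels by class, with a red circle for the GANT61 library and a blue square for the DMSO library. Most striated genes lie between 1 and 30 CPM in both libraries, apart from Tnnt2 at 122 CPM with GANT61 and 118 CPM with DMSO, and most non-muscle genes lie above 100 CPM in both libraries.

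Among the striated genes that reached 1 CPM, Myh4 gave the largest ratio. Myh4, the fast heavy chain of type IIB fibres, was at 22.2 CPM in the GANT61 library and 4.51 CPM in the DMSO library, a ratio of 4.93 (4.34 to 5.64, the 95% counting interval). Myh1, the heavy chain of type IIX fibres, was at 6.97 CPM with GANT61 and 2.51 CPM with DMSO, a ratio of 2.77 (2.30 to 3.36). Both stood well apart between the libraries on the scale of counting error. Myh2, the heavy chain of type IIA fibres, had 42 reads in the GANT61 library and 16 in the DMSO library. The extraocular heavy chain Myh13 had 45 reads with GANT61 and 12 with DMSO, and the embryonic Myh3 had 23 reads with GANT61 and 9 with DMSO. These 3 lay below the floor of 1 CPM, with intervals above 1. The perinatal Myh8 had 2 reads with GANT61 and 0 with DMSO.

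These 6 genes lie side by side on the plus strand of chromosome 11, with Myh3 first at 67078300 to 67102291 and Myh13 last at 67321658 to 67371586 (mm10, GENCODE M21). Myh4 lies between them at 67238029 to 67260446. Their sequences are close. Of the stretches of 50 bases in Myh1 transcripts, 30.5% also occur in transcripts of other genes, chiefly Myh2, and for Myh4 the share is 18.9%. The division of reads among the neighbours is therefore uncertain, and the table holds fractional reads for some of them.

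Of the slow and cardiac heavy chains, Myh7b alone reached 1 CPM. It was at 1.35 CPM in the GANT61 library and 2.19 CPM in the DMSO library, a ratio of 0.621 (0.462 to 0.824), and was called lower. The slow and ventricular Myh7 had 9 reads with GANT61 and 11 with DMSO, the atrial Myh6 had 2 reads with GANT61 and 1 with DMSO, and Myh15 had 3 reads with GANT61 and 4 with DMSO, each with an interval that held 1. Per gene length, Myh4 made up 67.9% of the summed RPKM of the 10 striated heavy chains in the GANT61 library and 44.9% in the DMSO library. In reads, its share was 67.8% (65.7 to 70.0, exact binomial) of 1863 in the GANT61 library and 44.8% (40.9 to 48.8) of 629 in the DMSO library. Of the same reads, Myh7b took 4.13% (3.28 to 5.14) with GANT61 and 21.8% (18.6 to 25.2) with DMSO. The mix of heavy chains thus differed between the libraries by more than counting error. These intervals do not cover the uncertain division of reads among heavy chains of close sequence. Of the exonic bases of Myh7b, 0.558% lie opposite Trpc4ap, which had 8287 reads with GANT61 and 9535 with DMSO.

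**Figure D2:**
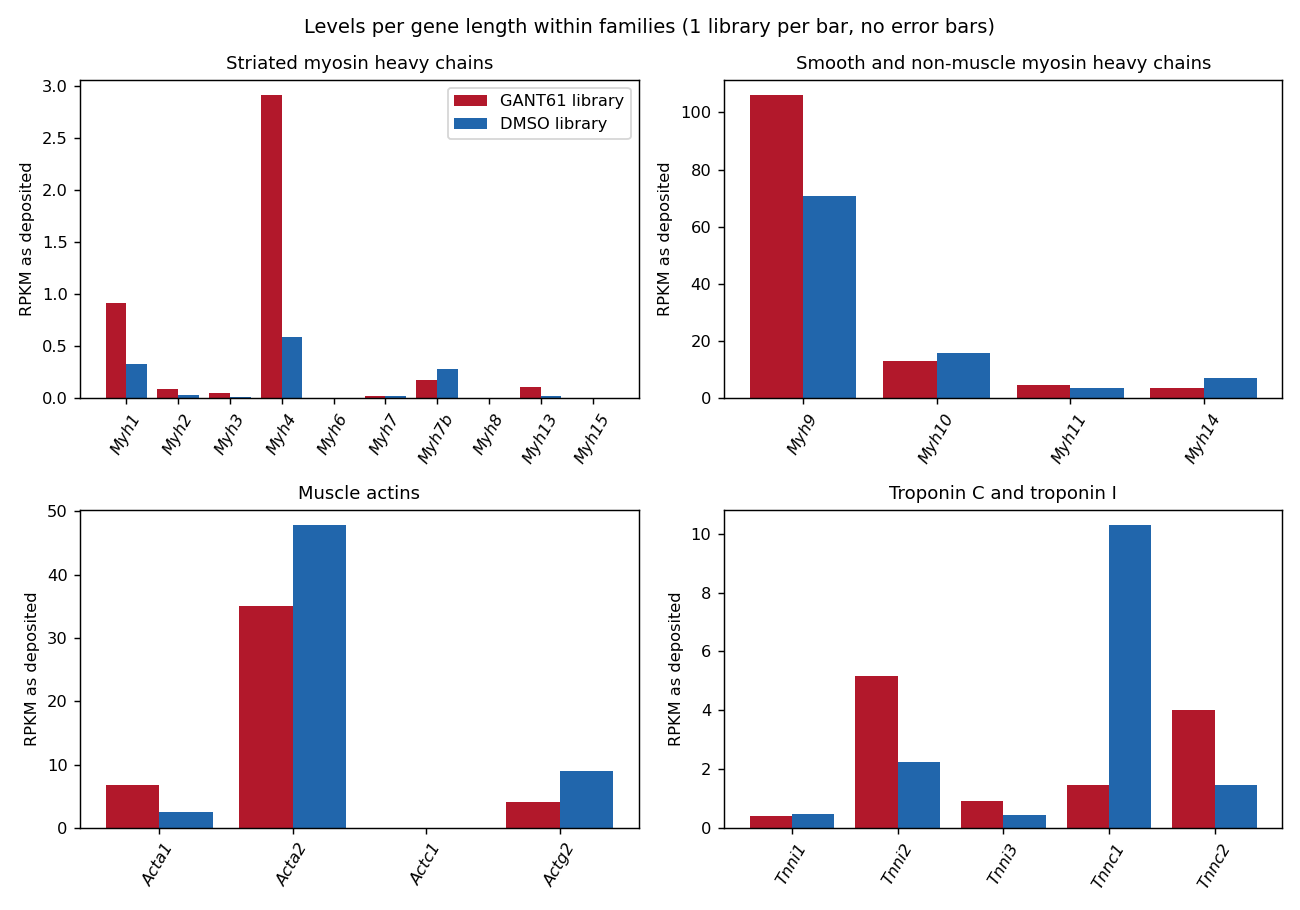
Deposited RPKM values (read counts divided by gene length and library total) in 4 families, each gene with a red bar for the GANT61 library on the left and a blue bar for the DMSO library on the right, 1 library per bar. Myh4 leads the striated heavy chains at 2.91 RPKM with GANT61 and 0.592 with DMSO, Tnnc1 stands at 1.47 with GANT61 and 10.3 with DMSO, and Acta2 leads the muscle actins at 35.1 with GANT61 and 47.8 with DMSO.

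The large structural proteins of the sarcomere and creatine kinase were higher together. Ttn encodes titin, the elastic filament that spans the sarcomere, and was at 4.75 CPM in the GANT61 library and 0.991 CPM in the DMSO library. Its ratio was 4.77 (3.63 to 6.43). Neb encodes nebulin, which runs along the thin filament, and was at 14.0 CPM with GANT61 and 4.01 CPM with DMSO, a ratio of 3.49 (3.03 to 4.05). Ckm encodes muscle creatine kinase, which regenerates ATP, and was at 8.04 CPM with GANT61 and 2.09 CPM with DMSO, a ratio of 3.83 (3.16 to 4.70). Of the exonic bases of Ckm, 15.5% lie opposite another annotated gene, which had 4 reads with GANT61 and 8 with DMSO. Acta1, the actin of skeletal thin filaments, was at 13.7 CPM with GANT61 and 5.22 CPM with DMSO, a ratio of 2.62 (2.31 to 2.998). Des encodes desmin, the intermediate filament of all muscle types, and was at 26.5 CPM with GANT61 and 16.5 CPM with DMSO, a ratio of 1.60 (1.48 to 1.74). The Z-disc protein Actn2 lay below the floor with 55 reads with GANT61 and 25 with DMSO. Myoglobin, encoded by Mb, was at 1.88 CPM with GANT61 and 2.03 CPM with DMSO and was called in neither direction, with a ratio of 0.929 (0.711 to 1.21). The exons of Mb overlap an antisense gene over 27.6% of their bases. A further 4.29% lie opposite Apol6, which had 1036 reads with GANT61 and 2272 with DMSO.

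Of the troponin subunits, 3 fast skeletal ones were called higher and 1 slow and cardiac one lower. Tnni2 and Tnnt3, the fast skeletal inhibitory and tropomyosin-binding subunits, were both higher in the GANT61 library. Tnni2 was at 4.73 CPM there and 2.06 CPM in the DMSO library, a ratio of 2.29 (1.85 to 2.86). Tnnt3 was at 10.2 CPM with GANT61 and 5.72 CPM with DMSO, a ratio of 1.79 (1.57 to 2.05). Tnnc2, the fast calcium-binding subunit, was at 3.52 CPM with GANT61 and 1.28 CPM with DMSO, a ratio of 2.74 (2.11 to 3.61). Its value is uncertain, since 74.0% of its exonic bases lie opposite exons of Ube2c, a ubiquitin-conjugating enzyme of dividing cells, which had 2154 reads in the GANT61 library and 1926 in the DMSO library.

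Tnnc1, the calcium-binding subunit of slow skeletal and cardiac muscle, had the smallest ratio of the 40 genes. It had 76 reads in the GANT61 library and 586 in the DMSO library, at 1.34 CPM with GANT61 and 9.36 CPM with DMSO, and thus a ratio of 0.144 (0.111 to 0.182). Adipocyte markers, at a median log2 ratio of -2.64, stand beside its log2 ratio of -2.80, and their part in it was not tested. Of the reads on troponin C, Tnnc2 held 72.5% (66.8 to 77.6) of 276 in the GANT61 library and 12.0% (9.64 to 14.7) of 666 in the DMSO library. These intervals do not cover the uncertainty from the overlap of Tnnc2 with Ube2c. Tnnt2, the cardiac subunit T, was at 122 CPM with GANT61 and 118 CPM with DMSO, and its ratio of 1.04 (1.01 to 1.07) met no call. Per gene length, it had the highest level of the striated genes in both libraries, at 77.2 RPKM with GANT61 and 74.6 RPKM with DMSO. The other subunits lay below the floor, Tnni3 and Tnnt1 with intervals above 1 and Tnni1 with one that held 1. Tnni3 had 60 reads with GANT61 and 32 with DMSO, Tnnt1 had 44 with GANT61 and 28 with DMSO, and Tnni1 had 34 with GANT61 and 43 with DMSO. Of the exonic bases of Tnni3, 4.17% overlap Dnaaf3 on the same strand, which had 586 reads with GANT61 and 232 with DMSO. Tnni3k, a cardiac kinase that binds troponin I and is no troponin subunit, had 1 read with GANT61 and 2 with DMSO.

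Of the striated myosin light chains named Myl, 2 reached 1 CPM. Myl1, the essential light chain of fast fibres, was at 3.06 CPM in the GANT61 library and 5.66 CPM in the DMSO library, a ratio of 0.542 (0.449 to 0.651). A processed copy, Mylf-ps, shares 16.0% of the 50-base stretches of Myl1. Myl4, the atrial and embryonic light chain, was at 1.28 CPM with GANT61 and 2.52 CPM with DMSO, a ratio of 0.511 (0.380 to 0.676). Both were called lower. The cardiac and slow light chain Myl3 had 0 reads with GANT61 and 8 with DMSO, Myl7 had 4 with GANT61 and 0 with DMSO, and Myl2 had no reads in either library. Mylpf, the regulatory light chain of fast fibres, which the naming rule of the members leaves out, was at 2.89 CPM with GANT61 and 1.18 CPM with DMSO, a ratio of 2.43 (1.84 to 3.26).

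The remaining striated genes bind myosin or cross-link actin. Mybpc1, the slow myosin-binding protein C, was at 2.53 CPM in the GANT61 library and 1.02 CPM in the DMSO library, a ratio of 2.47 (1.83 to 3.38). The fast form Mybpc2 was at 7.11 CPM with GANT61 and 7.29 CPM with DMSO, a ratio of 0.976 (0.851 to 1.12), and Actn3, the fast-fibre alpha-actinin, at 1.48 CPM with GANT61 and 1.33 CPM with DMSO, a ratio of 1.11 (0.813 to 1.53). Neither of the last pair was called. Actc1, the cardiac actin, had 9 reads with GANT61 and 13 with DMSO. Of the 17 genes below the floor, 16 were striated. Among the 17, 6 had intervals above 1, 1 had an interval below 1 and 10 had intervals that held 1. Without Tnnt2, the striated genes summed to 141 CPM in the GANT61 library and 79.6 CPM in the DMSO library.

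**Figure D3:**
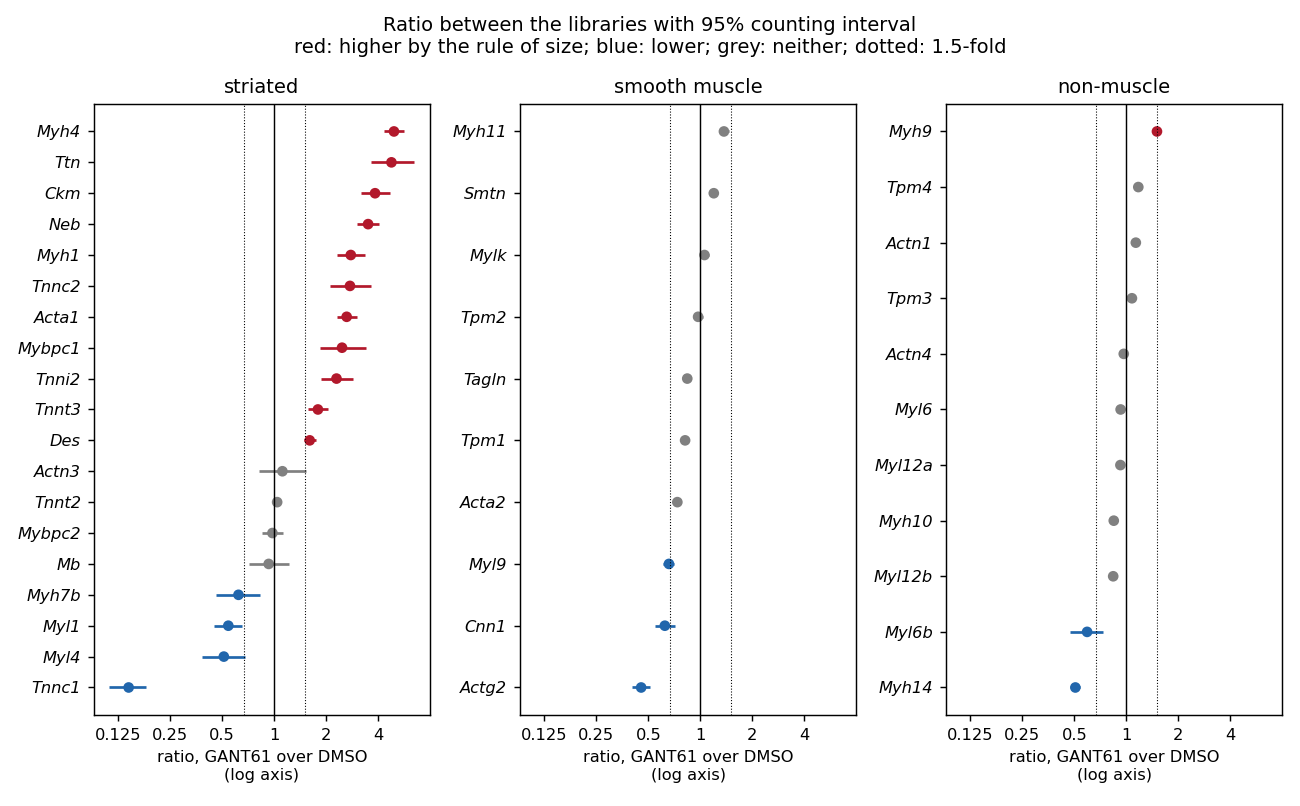
Ratio of the GANT61 to the DMSO library on a log axis, with its 95% counting interval, for the 40 genes that reached a mean of 1 CPM in 3 panels by class, red where higher by the rule of size, blue where lower and grey where neither. Striated ratios run from 0.144 for Tnnc1 to 4.93 for Myh4, while those of smooth muscle genes run from 0.454 to 1.37 and those of non-muscle genes from 0.507 to 1.503.

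Promoter sequences are shown for 4 genes, chosen after their values were seen. They are Myh4 and Tnnc1, with the largest and smallest ratio of the 40 genes that reached 1 CPM, Acta1 as the sarcomeric actin, and Myl9 as a lower smooth muscle gene. Each runs 5′ to 3′ from 250 bases before to 50 bases after the annotated start (RefSeq, GRCm38.p6). Capitals mark the CArG box, which serum response factor binds, the MEF2 motif, and CATTCC, a motif bound by TEAD factors, on either strand.
Myh4: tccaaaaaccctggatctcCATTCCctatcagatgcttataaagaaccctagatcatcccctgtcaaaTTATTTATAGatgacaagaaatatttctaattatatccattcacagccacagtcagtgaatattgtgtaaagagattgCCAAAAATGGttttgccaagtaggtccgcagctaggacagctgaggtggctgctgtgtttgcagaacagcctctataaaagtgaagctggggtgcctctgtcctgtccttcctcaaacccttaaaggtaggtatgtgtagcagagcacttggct
Acta1: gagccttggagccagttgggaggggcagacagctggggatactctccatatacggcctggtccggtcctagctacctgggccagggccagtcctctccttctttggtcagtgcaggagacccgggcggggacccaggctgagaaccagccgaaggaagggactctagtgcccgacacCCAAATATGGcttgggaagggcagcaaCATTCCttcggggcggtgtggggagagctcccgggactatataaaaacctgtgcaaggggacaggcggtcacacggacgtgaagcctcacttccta
Tnnc1: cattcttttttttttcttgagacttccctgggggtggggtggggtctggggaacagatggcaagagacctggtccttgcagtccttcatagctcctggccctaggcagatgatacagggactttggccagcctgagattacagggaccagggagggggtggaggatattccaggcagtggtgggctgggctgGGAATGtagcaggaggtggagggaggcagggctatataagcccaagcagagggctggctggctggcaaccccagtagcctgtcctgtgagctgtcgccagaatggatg
Myl9: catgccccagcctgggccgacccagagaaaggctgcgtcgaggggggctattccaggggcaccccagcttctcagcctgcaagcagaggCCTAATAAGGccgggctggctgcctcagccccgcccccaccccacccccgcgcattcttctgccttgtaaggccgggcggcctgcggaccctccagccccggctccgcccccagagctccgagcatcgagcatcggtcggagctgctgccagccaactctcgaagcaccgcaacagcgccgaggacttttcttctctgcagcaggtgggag
These windows lie at chr11:67237562-67237861 on the plus strand, chr8:123894726-123895025 on the minus strand, chr14:31208062-31208361 on the plus strand and chr2:156775214-156775513 on the plus strand, in the order printed. The Myh4 window holds all 3 motifs, the Acta1 window a CArG box from -73 to -64 and a CATTCC from -46 to -41, the Tnnc1 window a CATTCC read on the opposite strand, and the Myl9 window a CArG box from -161 to -152.

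Promoter windows were found for 50 of the 57 genes, 60 windows in all. A CArG box was present in 8 of them (13.3%), against 535 of 32851 windows of all genes (1.63%). Those 8 belonged to Acta1, Actc1, Myh4, Myh13, Myl3, Myl7, Myl9 and Myl6, of which Acta1 and Myh4 were higher and Myl9 lower. The MEF2 motif was present in 5 windows (8.33%), against 3.19% of all windows. These belonged to Myh1, Myh4, Myh8, Ttn and Tnni3k, all striated, and Myh1, Myh4 and Ttn were called higher. CATTCC was present in 21 windows (35%), against 14.7%. The E-box CANNTG, the core bound by myogenic factors, was present in 53 windows (88.3%), against 72.3%. A match is a stretch of letters and not a shown binding site, and an absent match concerns these windows and these letters.

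Smooth muscle genes were lower in the GANT61 library or were not called. Actg2, the actin of enteric and other visceral smooth muscle, was at 6.83 CPM in the GANT61 library and 15.0 CPM in the DMSO library, a ratio of 0.454 (0.402 to 0.512). Cnn1 encodes calponin 1, an actin-binding protein of differentiated smooth muscle and myoepithelium, and was at 6.30 CPM with GANT61 and 10.1 CPM with DMSO, a ratio of 0.623 (0.546 to 0.710). Myl9, the smooth muscle regulatory light chain, was at 20.7 CPM with GANT61 and 31.4 CPM with DMSO, a ratio of 0.658 (0.612 to 0.708). These 3 were the called genes of the group, and Myl9, near the threshold, lost its call at a ratio of 0.713 with the gene length trend removed.

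The most widely used smooth muscle and myofibroblast marker, Acta2, was at 114 CPM in the GANT61 library and 155 CPM in the DMSO library, a ratio of 0.736 (0.713 to 0.760), inside the threshold. Tagln encodes transgelin, an early smooth muscle protein, and was at 133 CPM with GANT61 and 158 CPM with DMSO, a ratio of 0.840 (0.815 to 0.866). An antisense gene overlaps 62.4% of its exonic bases, and strand was not given in the sources used here. Tpm1 and Tpm2, tropomyosins with both smooth and striated isoforms that gene counts do not separate, had ratios of 0.816 (0.797 to 0.836) and 0.971 (0.908 to 1.04). Their levels were 201 CPM with GANT61 and 246 CPM with DMSO for Tpm1 and 28.9 CPM with GANT61 and 29.8 CPM with DMSO for Tpm2.

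In contrast to these, 3 smooth muscle genes had ratios above 1 without a call. Myh11, the smooth muscle heavy chain, was at 40.9 CPM in the GANT61 library and 29.8 CPM in the DMSO library, a ratio of 1.37 (1.29 to 1.46). Smtn encodes smoothelin, found in contractile smooth muscle cells, and was at 89.1 CPM with GANT61 and 74.5 CPM with DMSO, a ratio of 1.20 (1.15 to 1.25). Mylk encodes myosin light chain kinase and was at 46.2 CPM with GANT61 and 43.7 CPM with DMSO, a ratio of 1.06 (1.001 to 1.12). Cnn1 and Myh11, both markers of myoepithelial and smooth muscle cells, thus lay on opposite sides of 1 with intervals that did not overlap.

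Among the muscle actins, Acta2 made up 76.0% of the summed RPKM of Acta1, Acta2, Actc1 and Actg2 in the GANT61 library and 80.2% in the DMSO library. Acta1 made up 14.9% with GANT61 and 4.42% with DMSO, and Actg2 8.88% with GANT61 and 15.2% with DMSO. All 4 were small beside the cytoplasmic actins Actb, at 1359 RPKM with GANT61 and 962 RPKM with DMSO, and Actg1, at 1216 RPKM with GANT61 and 946 RPKM with DMSO.

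Non-muscle genes carried most of the reads of the 57 genes, at a summed 3762 CPM with GANT61 and 3450.2 CPM with DMSO. Myh9, the heavy chain of non-muscle myosin IIA and the main form in leukocytes, was at 998 CPM in the GANT61 library and 665 CPM in the DMSO library, a ratio of 1.503 (1.48 to 1.52). It sat on the threshold. Its ratio was 1.46 with total counts and 1.41 with the length trend removed, and 5 of 6 alternative scalings and settings took the call away. Myh10, the heavy chain of myosin IIB, was at 130 CPM with GANT61 and 154 CPM with DMSO, a ratio of 0.845 (0.820 to 0.871). Myh14, the heavy chain of myosin IIC, which is prominent in epithelia, was at 29.7 CPM with GANT61 and 58.7 CPM with DMSO and was lower at 0.507 (0.478 to 0.537). In reads, Myh9 took 83.2% (83.0 to 83.5) of the 4 heavy chains Myh9, Myh10, Myh11 and Myh14 in the GANT61 library and 73.2% (72.9 to 73.6) in the DMSO library. Myh14 took 2.48% (2.36 to 2.60) with GANT61 and 6.47% (6.27 to 6.67) with DMSO.

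Of the light chains that serve non-muscle myosin, Myl6, Myl12a and Myl12b were not called and Myl6b was lower. Myl6, the essential light chain of smooth and non-muscle myosin, was at 567 CPM with GANT61 and 612 CPM with DMSO, a ratio of 0.926 (0.912 to 0.940). Myl12a and Myl12b, the regulatory light chains, had ratios of 0.923 (0.903 to 0.944) and 0.839 (0.817 to 0.861). They lie next to each other and share 18.8% of the 50-base stretches of Myl12a, so their division is uncertain. Myl12a was at 251 CPM with GANT61 and 272 CPM with DMSO and Myl12b at 173 CPM with GANT61 and 207 CPM with DMSO. Myl6b, a second essential chain, was at 2.31 CPM with GANT61 and 3.90 CPM with DMSO and was lower at 0.592 (0.474 to 0.734). Myl10 had 3 reads with GANT61 and 1 with DMSO.

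None of the 4 non-muscle actinin and tropomyosin genes was called. Actn1 and Actn4, which cross-link actin at adhesions and in the cortex, had ratios of 1.13 (1.11 to 1.16) and 0.965 (0.948 to 0.983), at 238 CPM with GANT61 and 209.5 CPM with DMSO for Actn1, and 392 CPM with GANT61 and 407 CPM with DMSO for Actn4. Tpm4 was at 643 CPM with GANT61 and 548 CPM with DMSO, a ratio of 1.17 (1.15 to 1.19). Tpm3 was at 337 CPM with GANT61 and 313 CPM with DMSO, a ratio of 1.08 (1.05 to 1.10), and 40.0% of its 50-base stretches also occur in the copy Tpm3-rs7. Per gene length, Tpm4 was the leading tropomyosin, at 64.2% of the summed RPKM in the GANT61 library and 59.5% in the DMSO library.

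Further skeletal muscle genes were listed from textbook knowledge, with earlier results of these data known, and are not among the 57. Of 39 measured, 16 reached 1 CPM, of which 11 were higher, 1 was lower and 4 were in neither class. Their median log2 ratio was 1.10. Atp2a1, the calcium pump of the fast sarcoplasmic reticulum, was at 14.1 CPM in the GANT61 library and 3.87 CPM in the DMSO library, a ratio of 3.65 (3.17 to 4.24). Ryr1, the calcium release channel, had a ratio of 2.12 (1.79 to 2.51) and Pygm, muscle glycogen phosphorylase, of 2.25 (1.77 to 2.90). Cox7a1, a respiratory subunit of muscle and brown fat, was lower at 0.486 (0.376 to 0.619). The myogenic regulators that define muscle precursors were at or near 0. Myod1 had 0 reads with GANT61 and 1 with DMSO, and Myog 1 read in each. Of 12 measured myogenic regulators 6 reached 1 CPM, with 0 higher and 2 lower and a median of -0.15. Six4, a homeobox factor that other tissues also express, was lower at 0.516 (0.463 to 0.573).

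Further smooth muscle genes had 1 higher and 9 lower among 32 that reached 1 CPM, while 22 were in neither class. Their median was -0.23, and 34 were measured. Cav1 and Cavin1, coat proteins of caveolae, which are dense on adipocytes too, had ratios of 0.437 (0.426 to 0.448) and 0.562 (0.549 to 0.576), and Cnn3 of 0.649 (0.636 to 0.662). Adipocyte markers were lower too, at a median log2 ratio of -2.64, and their part in these values was not tested. Pericyte markers, a cell type of small vessels that carries Acta2, Des and Myh11 in part, had 1 higher and 6 lower among 13. Their median was -0.54. They summed to 371 CPM in the GANT61 library and 437 CPM in the DMSO library, and none was at 0. The called pericyte markers Abcc9 and Ebf1 had ratios of 0.579 (0.536 to 0.624) and 0.581 (0.537 to 0.627), Kcnj8 of 0.580 (0.518 to 0.649) and Rgs4 of 1.78 (1.61 to 1.98).

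Myoepithelial and basal epithelial genes had a median above 1 in ratio, on the other side from the smooth muscle genes, some of which myoepithelial cells also express. Of 22 measured, 10 were higher and 3 lower, and the median log2 ratio was 0.58. Krt5 and Krt17, keratins of basal cells, had ratios of 3.13 (3.04 to 3.22) and 3.65 (3.46 to 3.85). Lama3 and Lamb3, chains of the basement membrane protein laminin 332, had ratios of 3.36 (3.22 to 3.50) and 2.26 (2.17 to 2.34). Oxtr, the oxytocin receptor through which myoepithelial cells contract, was lower, with 236 reads in the GANT61 library and 622 in the DMSO library. The list summed to 5363 CPM with GANT61 and 4547 CPM with DMSO and no gene of it was at 0. Vim and Sparc, neither of them called, took the largest parts of these sums. Vim was at 1678 CPM with GANT61 and 1490 CPM with DMSO, and Sparc at 1301 CPM with GANT61 and 1616 CPM with DMSO.

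Serum response factor switches on many of these genes with its partners MRTF and myocardin. A wider list of 21 genes also held TEAD factors, Yap1, Wwtr1, Cyr61 and Ctgf, among others. Of these 21 genes, 20 reached 1 CPM and gave 1 higher and 1 lower. The median over them was -0.13. Klf4, which represses smooth muscle genes, was higher at 1.61 (1.54 to 1.70), and Phactr1, an actin-binding regulator of MRTF, was lower at 0.333 (0.304 to 0.363). Srf itself was at 69.1 CPM with GANT61 and 57.8 CPM with DMSO, a ratio of 1.20 (1.14 to 1.25). Myocd, the myocardin gene that marks smooth and cardiac muscle, had 10 reads with GANT61 and 7 with DMSO. For the kinases and phosphatases that set myosin light chain phosphorylation, 3 were higher and 2 lower among 25 that reached 1 CPM, of 26 measured, and the median was 0.01. Rhoc had a ratio of 0.602 (0.588 to 0.615), Dapk1 of 0.560 (0.532 to 0.589), Limk1 of 1.56 (1.44 to 1.69) and Cit, the citron kinase of dividing cells, of 1.77 (1.53 to 2.05).

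**Figure D4:**
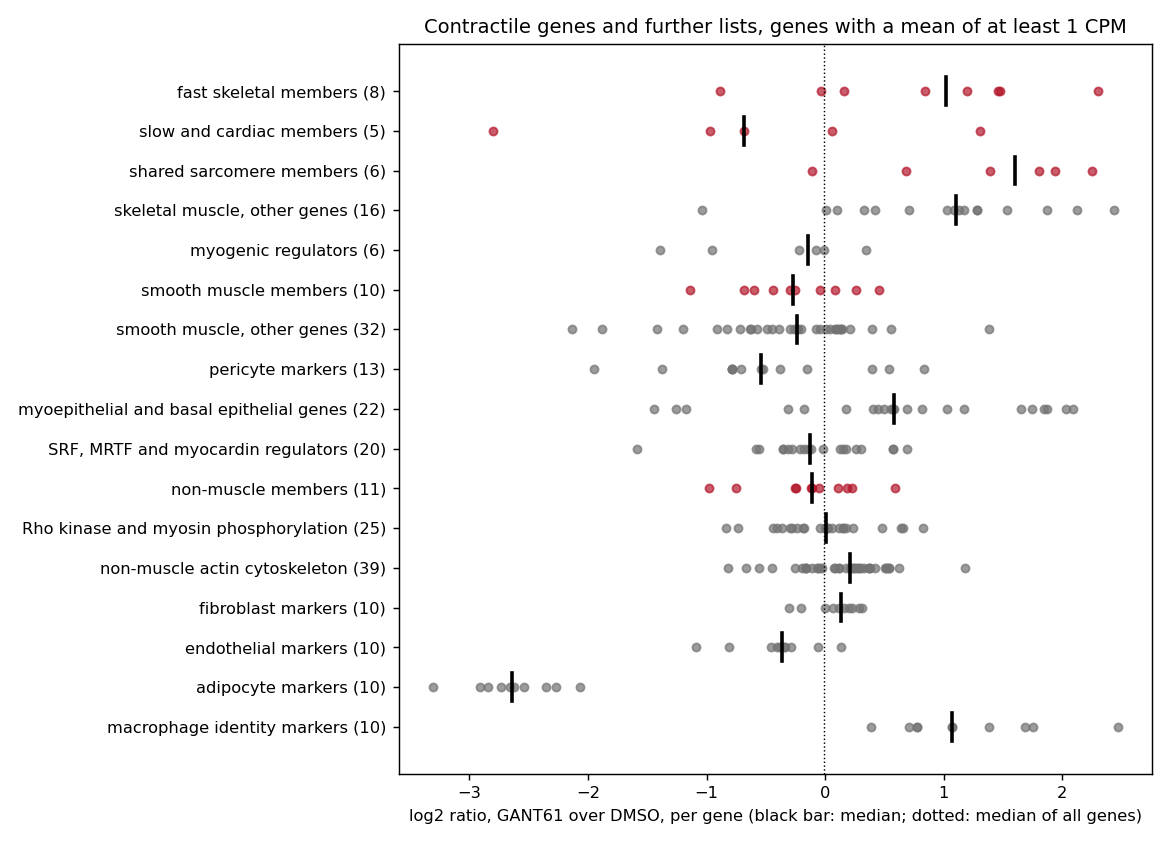
Log2 ratio of the GANT61 to the DMSO library for each gene that reached a mean of 1 CPM, by group, with red points for the contractile genes, grey points for the further lists, a black bar at each median and a dotted line at the median of all genes. The fast skeletal and shared sarcomere genes and the further skeletal genes have medians of 1.02, 1.60 and 1.10. The slow and cardiac genes among the 57 have a median of -0.69, and the smooth muscle and non-muscle genes of -0.27 and -0.11.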

How the data were processed

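The authors deposited 2 tables with 1 column per library, the first of expected counts per gene, not normalized, and the second of RPKM values, normalized for gene length and for sequencing depth. The submitters' processing notes name cutadapt, HISAT2, Partek, SAMtools and STAR, with hg19 and mm10 as builds. Which tool did what, their versions, and the read counter, gene models and strandedness are not given in the sources used here. Columns were matched to libraries by the treatment in their names. Of the deposited counts, 29.3% in the GANT61 library and 29.5% in the DMSO library were not whole, so the expected counts were rounded first.

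TMM scaling (trimmed mean of M values) over all 20003 rows was done with edgeR 4.0.16 in R 4.3.3, and levels are CPM of the scaled libraries. Ratios are GANT61 over DMSO with a prior count of 0.5 per library. Intervals are 95% exact Clopper-Pearson intervals (scipy 1.17.1) and cover counting error only. Reads are not independent molecules, so the intervals can be too narrow even for that error. With 1 library per group the conditions could not be tested, and no p-values were computed. The steps were tested on simulated data. Levels per gene length are the deposited RPKM values. Read shares within families and summed CPM are not corrected for gene length.

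The 57 genes, their classes and the 14 further lists were chosen with earlier results of these data known. Every member is named. The adipocyte, macrophage, fibroblast and endothelial lists are given by counts and sums only. Of each of the other 10 lists, up to 4 called genes with the highest mean level are named, or 2 where none was called. Defining markers, Srf and the cytoplasmic actins are named beyond this, and 2 called genes of these lists are not reported here. Des was placed with striated genes, Tpm1 and Tpm2 with smooth muscle, and Tpm3 and Tpm4 with non-muscle genes. Alternatives were DESeq2 1.42.0 size factors, total counts, upper quartile scaling, the scaling behind the RPKM values, a prior count of 2, other floors, a fold of 2, removal of the gene length trend, and other class assignments. Shared 50-base stretches and exon overlaps came from GENCODE M21 (mm10). Python 3.11.15 was used with numpy 2.4.6, pandas 2.3.3, statsmodels 0.14.6 and matplotlib 3.10.9.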

Additional observations from a re-analysis of the deposited data

How the results depend on the processing

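The called genes kept their direction under the 6 alternative scalings and settings tried for each of 40 genes, and 234 of 240 such values kept their side of the threshold. The exceptions were Myh9, uncalled in 5, and Myl9, uncalled with the length trend removed. The number of non-muscle genes called higher was therefore 0 with DESeq2 size factors, total counts, upper quartile scaling, the scaling of the RPKM values, the length trend removed and a fold of 2. With a fold of 2, 972 genes of all were higher and 595 lower, and lower calls fell to 1 striated, 1 smooth muscle and 0 non-muscle genes. At the floor of 1 CPM 1972 genes of all were higher and 1436 lower. With no floor 17 striated genes were higher, beside 2585 of all genes higher and 1889 lower. With a floor of 5 CPM 6 striated genes were higher and 1 lower, and 1 non-muscle gene was lower. Of all genes, 1380 were then higher and 998 lower. With Des among the smooth muscle genes, 1 of them was higher. The smooth muscle median of -0.27 was -0.32 with total counts, -0.31 with the upper quartile, -0.23 with the length trend removed and -0.35 without the tropomyosins. The non-muscle median of -0.11 was -0.16 with total counts, -0.15 with the upper quartile, -0.058 with the length trend removed, and -0.081 with no floor or with a floor of 5 CPM. The cause was not tested except where a scaling, floor or class change moves the value by construction. No paired analysis was possible because each group had 1 library. Low reads limit 17 of the 57 genes.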

Other observations

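Further lists near the contractile genes gave these values. Of 40 measured genes of the non-muscle actin cytoskeleton 39 reached 1 CPM, and 2 were higher and 2 lower. Their median log2 ratio was 0.21. Gsn, the actin-severing protein gelsolin, was at 825 CPM in the GANT61 library and 1456 CPM in the DMSO library, a ratio of 0.567 (0.560 to 0.573). Lcp1, the leukocyte actin-bundling protein L-plastin, was at 810 CPM with GANT61 and 357 CPM with DMSO, a ratio of 2.27 (2.23 to 2.31), beside macrophage markers at a median of 1.07. Pfn2 had a ratio of 0.631 (0.570 to 0.699) and Tmod1 of 1.54 (1.12 to 2.15).

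Of 13 measured genes that fold, repair or degrade sarcomere proteins, 8 reached 1 CPM, with 0 higher and 2 lower and a median of -0.05. Unc45b, the chaperone of striated muscle myosin, was at 3.50 CPM in the GANT61 library and 6.02 CPM in the DMSO library, a ratio of 0.582 (0.487 to 0.692). Capn3, a muscle calpain, had 49 reads with GANT61 and 112 with DMSO. Below the floor, 3 had intervals above 1: Trim63 with 22 reads with GANT61 and 8 with DMSO, Trim54 with 24 with GANT61 and 8 with DMSO, and Smyd1 with 49 with GANT61 and 30 with DMSO. Of 7 cardiac and atrial genes outside the 57, 3 reached 1 CPM, and 2 were higher with a median of 0.64. Nppb, the natriuretic peptide B gene, had 689 reads in the GANT61 library and 113 in the DMSO library, a ratio of 6.69 (5.50 to 8.27). Hcn4 had a ratio of 1.56 (1.16 to 2.09), while Nppa, the atrial natriuretic peptide gene, had 1 read with GANT61 and 3 with DMSO and Nkx2-5, the cardiac homeobox gene, had none in either library.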
